A study of Mus musculus with 12 samples.

Results

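Simple tandem repeats are tracts in which a short unit of bases is copied head to tail, and repeat annotation names each kind by its unit, so that (CA)n stands for any length of CACACA. In the table of normalized counts per repeat name, 304 of 1528 names were of this kind. Members were those whose mean across all 12 libraries reached 10. They numbered 166, among 1180 repeat names of every kind that reached it. The 138 names left out held 0.577% of the simple repeat signal. Just outside the minimum were (TATTG)n at a mean of 9.77 and (CGCGG)n at 9.97, and just inside were (CCTTG)n at 10.02 and (GGGTG)n at 10.1. The mean over all libraries chose the members, without regard to the groups, but 8 members would fall under the minimum if 1 of the groups were left out, among them (CATTC)n and (TTTAG)n for BO and (CTATG)n for IP.

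The study asked which RNAs accompany ORF1p, the RNA-binding protein encoded by the first reading frame of LINE-1 retrotransposons. All samples came from testes of 3-month-old Mael-/- mice on the C57BL/6 strain. These animals lack Maelstrom, a factor needed to silence retrotransposons in germ cells, and there was no wild-type group. The 4 groups, of 3 libraries each, were TOTAL (clarified testis extract brought to 10 mM EDTA), INPUT (pooled sucrose gradient fractions 5 to 8 of that extract), IP (INPUT RNA recovered with an antibody to LINE-1 ORF1p) and BO (INPUT incubated with beads and no antibody). The design describes the replicates as biological but the labels do not tie a replicate number to an animal, so p-values measure the spread between these libraries.

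Microsatellites arise mainly by slippage of the DNA polymerase, and they are transcribed chiefly as passengers inside introns and untranslated regions of longer RNAs. Runs of A lie at the tails of retrotransposed elements, (TTAGGG)n is the telomere unit, and units of 3 bases can stand in coding sequence without shifting the reading frame. A few trinucleotide tracts are known for disease-causing expansion, among them CAG/CTG and CGG/CCG. Names are written on the reference strand, so 1 double-stranded motif can appear under 2 reverse complement names. The 166 members form 95 such motifs, of which 71 have both names among the members. The methods do not say that strand was used when repeats were counted, so a name refers to loci in the genome and does not tell which strand was transcribed.

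To show what the leading units look like inside transcripts, perfect tracts of 24 bases or more were sought on the sense strand of GENCODE M21 transcripts (GRCm38). For each unit, the tract shown is the one in the gene with the highest mean in TOTAL by the authors' table, of the tracts that could be shown, with 1 copy of the named unit, or of its reverse complement, in capitals. Each line holds 24 bases, which is the whole tract in Tsc22d1 and Bend4 and part of a tract of 30 bases in Scarb1, 32 in Kalrn and 26 in Qk. They are examples of the motif, and the loci that gave the reads were not analysed here.
Tsc22d1: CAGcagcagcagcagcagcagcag
Bend4: gCCGccgccgccgccgccgccgcc
Scarb1: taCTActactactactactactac
Kalrn: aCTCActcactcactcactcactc
Qk: TGtgtgtgtgtgtgtgtgtgtgtg
The coordinates are those of the bases shown. The Tsc22d1 tract, for (CAG)n, lies in coding sequence in exon 3 of a transcript of that gene (chr14:76417268-76417291, plus strand). The Bend4 tract, for (CGG)n, is in coding sequence in exon 1 (chr5:67427386-67427409, minus strand). The Scarb1 tract, of the motif of (CTA)n and (TAG)n, is in exon 1 of a noncoding transcript (chr5:125285538-125285561, minus strand). Those of the CTCA/TGAG motif and of (CA)n are in 3' UTRs, the former in exon 27 of Kalrn (chr16:33969212-33969235, minus strand) and the latter in exon 8 of Qk (chr17:10204792-10204815, minus strand). Names being written on the reference strand, the Scarb1 and Kalrn loci would fall under (TAG)n and (TGAG)n, the reverse complement names.

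Deposited values are counts divided by an upper quartile factor per library, and whole reads could be recovered from them. Reads on repeat names numbered 1384904 to 7282171 per library, and 51687 to 165754 of these were on simple repeats, with a median of 44.5 to 101.5 reads per member. The share on simple repeats was 1.49% ± 0.68 in TOTAL, 2.52% ± 0.29 in INPUT, 3.35% ± 1.30 in BO and 3.56% ± 0.15 in IP (SD, n = 3). This share depends on a few abundant RNAs: the 7SL repeat name took 38.1% to 51.6% of TOTAL reads and at most 1.63% of IP reads, and large subunit rRNA took 52.1% of BO replicate 3. With both names left out, the shares were 3.08% ± 0.63, 3.50% ± 0.15, 4.15% ± 0.46 and 3.75% ± 0.16 in the same order. L1Md_A, the LINE-1 subfamily that serves as positive control, stood at 95645, 75201 and 56029 in IP against 15633, 14530.5 and 14131 in BO. In the authors' gene means the spermatocyte marker Sycp1 was at 71553 in IP and 9433 in TOTAL, and Sycp3, Dazl and Ddx4 were also higher in IP. The Leydig cell marker Cyp11a1 was at 5257 in IP and 17634 in TOTAL and the Sertoli cell marker Sox9 at 955 and 1591. The spermatid genes Prm1 and Tnp1 were at 0.859 and 0.714 in IP and at 22.0 and 30.1 in TOTAL. In the authors' means for IP and BO, Sycp1 was at 54865 and 4494, Cyp11a1 at 4018 and 1534 and Sox9 at 731 and 1855. The part of germ cell RNA content in the differences that follow was not tested, and less RNA per cell and fewer cells of a type cannot be told apart in bulk samples.

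With the authors' upper quartile scaling, most simple repeats were not called between groups, and the names that were called formed short lists. A name was called when limma gave a log2 fold change above 1 or below -1 with a Benjamini-Hochberg adjusted p under 0.05 over the 1180 names. Against BO, 9 members were higher in IP and 5 lower, or 5.42% and 3.01%, beside 5.08% and 3.81% of all names tested. Set against INPUT, IP had 6 names higher and 2 lower, beside a background of 3.22% and 2.88%. Set against TOTAL, it had 8 higher and 2 lower, beside 2.88% and 3.47%. BO against INPUT gave 7 higher and 1 lower, beside 2.63% and 2.8%. These 7 include (CATTC)n and (TTTAG)n, which BO values had carried past the minimum mean. The names higher in IP than in INPUT and TOTAL include (CTATG)n, which IP values had carried past it. INPUT against TOTAL gave 0 higher by limma, by edgeR and at an unadjusted p under 0.05 with that fold, where the background was also 0, and 1 lower, beside 0.339%. Over all comparisons 24 members were called at least once, a tally for which no background is given. The counts that involve TOTAL turned on the scaling: scaled to library totals, 136 of the 166 members were called higher and 0 lower for IP against TOTAL, with a median log2 fold change of 1.49, and 93 and 0 for INPUT against TOTAL, with a median of 1.05. Under that scaling the median of all names was 1.49 and 1.03 in these comparisons. IP against BO and IP against INPUT each had 18 members higher under it, and 4 and 1 lower. No share of all names called is given for these counts, so they are not read as a result about simple repeats. Under the upper quartile scaling, the shares called lie near the background or differ from it by a few names. The comparisons share groups, so their lists are not independent. Median log2 fold changes of the members were -0.22 for IP against BO, -0.09 for IP against INPUT, -0.02 for IP against TOTAL, 0.08 for INPUT against TOTAL and 0.07 for BO against INPUT, where all names had -0.12, -0.06, -0.05, 0.03 and 0.03. None of the 10 low complexity names, the rows most like simple repeats, was called by limma or by edgeR in any of the 5 comparisons, and 0 to 4 of them per comparison had an unadjusted p under 0.05.

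The names of the CAG/CTG motif were higher in IP than in each other group, by 2.5 to 3.9 fold. (CAG)n stood at 1681, 1385 and 1076 in IP, 329.7, 418 and 624 in BO, 334, 436 and 543 in INPUT and 325, 497 and 494 in TOTAL. Its reverse complement (CTG)n stood at 2561, 1494 and 1494 in IP, 671, 595 and 927 in BO, 408, 577 and 600.1 in INPUT and 294, 517 and 617 in TOTAL. For both names the lowest IP library was above the highest of the other 9 libraries. The log2 fold change of (CAG)n was 1.62 ± 0.26 (SE) against BO, 1.66 ± 0.26 against INPUT and 1.66 ± 0.26 against TOTAL, with limma adjusted p of 0.0005, 0.00071 and 0.00083. That of (CTG)n was 1.31 ± 0.29, 1.78 ± 0.29 and 1.97 ± 0.29, with limma adjusted p of 0.0039, 0.00091 and 0.00058. Both names were called in all 3 comparisons under every alternative processing tried. The log2 ratio of (CTG)n to (CAG)n was 0.40 ± 0.26 (SD, n = 3) in IP, 0.70 ± 0.28 in BO, 0.28 ± 0.13 in INPUT and 0.08 ± 0.23 in TOTAL. The ratio in IP overlapped that of BO, INPUT and TOTAL (exact permutation p = 0.4, 0.5 and 0.2, two-sided), while the libraries of BO and INPUT did not overlap (exact permutation p = 0.1, the smallest that 3 against 3 allows).

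**Figure D1:**
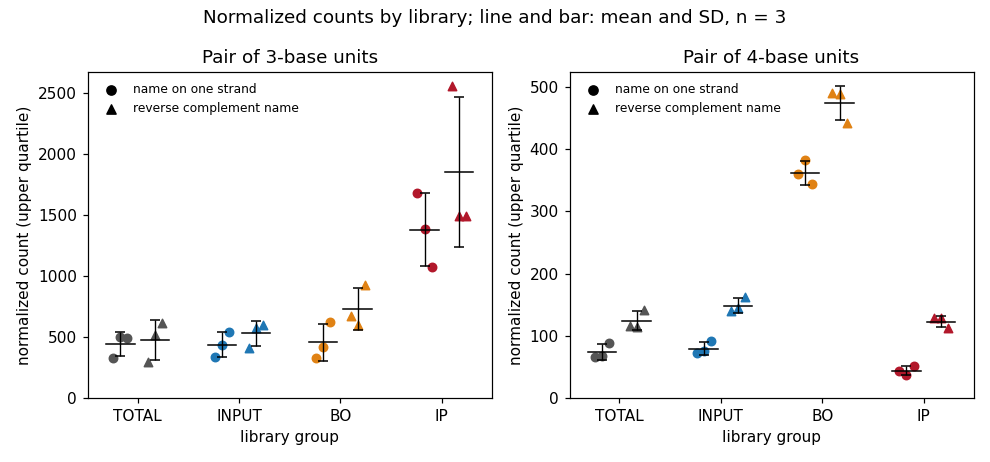
Normalized counts (vertical axes) of the names (CAG)n and (CTG)n, left, and (CTCA)n and (TGAG)n, right, in the 3 libraries of each group (horizontal axes), with the mean and SD. For the pair of 3-base units the IP libraries lie above all others, at 1076 to 2561, and for the pair of 4-base units the BO libraries do, at 343 to 489.9.

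Other 3-base units were also called higher in IP. (CTA)n was at 427, 283 and 340.4 in IP and 152, 129 and 156 in BO, and was called against BO, INPUT and TOTAL with log2 fold changes of 1.25, 1.15 and 1.61. (TCG)n was at 132, 125 and 100.5 in IP and 42.1, 35.1 and 25.5 in TOTAL, and was called in the same 3 comparisons at 1.24, 1.14 and 1.79. The call of (CTA)n against INPUT was lost without INPUT replicate 1, at 0.96, or without IP replicate 1, and that of (TCG)n against BO without BO replicate 1, at 0.97. (ATG)n was at 1571, 1320.0 and 1150.0 in IP and 622, 609.8 and 571 in INPUT, a log2 fold change of 1.15 ± 0.15 (SE, limma adjusted p = 0.00019). Its difference from TOTAL was 0.997 and from BO 0.69, both short of the fold limit. The IP libraries of (CTA)n, (TCG)n and (ATG)n lay above all 9 other libraries. Among the 166 members 9 names had this pattern, or 5.42%, beside 7.29% of all names tested. The 9 include (CTATG)n, which IP values had carried past the minimum mean.

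Units of 5 and 6 bases were called higher in IP as well, and several of these calls rested on single libraries. (GCCTG)n, called against BO and TOTAL, was at 266, 96.0 and 124 in IP, 41.1, 36.4 and 59.3 in BO and 16.1, 73.5 and 66.0 in TOTAL. IP replicate 1 stood highest, and the log2 fold change of 1.75 against TOTAL was 1.07 to 2.13 with each library left out, with the call lost without IP replicate 1, IP replicate 3 or TOTAL replicate 1. (GCCTG)n also lost that call in the fit of the compared groups alone. Against BO its value of 1.70 moved between 1.27 and 2.00 and was lost without BO replicate 1 or 2 or IP replicate 1 or 3. (CGGGG)n was at 129, 51.2 and 59.5 in IP and 21.2, 9.11 and 56.1 in BO, so that the groups overlapped. Its call against BO was lost with any of 5 libraries left out, without a minimum, with the replicate block and with edgeR. (CCCCAG)n, at 447, 283 and 269 in IP and 119.7, 85.9 and 181 in BO, was called against BO at 1.39 but not without BO replicate 2 or IP replicate 1. (CTATG)n, the rarest of these, was at 19.1, 21.8 and 19.5 in IP and 5.57, 5.49 and 9.57 in TOTAL, which is 13 reads in IP replicate 1 and 9 in TOTAL replicate 1. IP values had carried it past the minimum mean. Its calls against INPUT and TOTAL, the latter at 1.46, were lost with a pseudocount of 10, and the former also with any of 5 libraries left out.

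(GGAGAA)n and (CACCAT)n, of 6 bases, were more even between replicates. (GGAGAA)n was at 137, 123 and 119 in IP, 52.4, 39.0 and 64.1 in BO and 47.2 to 97.7 in TOTAL and INPUT, so that IP lay above all other libraries. (CACCAT)n was at 275, 274 and 242 in IP and 109, 85.9 and 133 in BO, while TOTAL, at 210.4, 240.4 and 288, overlapped IP. Both were called against BO, at 1.29 ± 0.23 (SE) and 1.28 ± 0.20, with limma adjusted p of 0.0012 and 0.0004, and kept that call under every alternative tried. (CTGTG)n was at 103, 93.5 and 84.9 in IP and 39.0, 49.4 and 45.7 in TOTAL. It was called against TOTAL at 1.05, but not without IP replicate 1 or TOTAL replicate 1, or with a pseudocount of 10. In BO it was as high, at 142.7, 93.7 and 91.4. (CTGGGG)n, at 135, 98.6 and 65.3 in IP and 27.2, 61.5 and 42.5 in TOTAL, was called at 1.18. The call was lost with any of 4 libraries left out and in the fit of the compared groups alone.

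Grouped by unit length, the 19 names with a unit of 3 bases held a larger share in IP. They held 17.6%, 14.9% and 13.5% of simple repeat reads in the IP libraries and 7.23% to 11.97% in the other 9 libraries, with no overlap. With (CAG)n and (CTG)n left out, the IP values of 12.7%, 11.1% and 10.2% overlapped the others, which reached 10.8%. Against TOTAL the median log2 fold change in IP was 0.31 for 3-base units, -0.66 for the 4 names of 1 base, -0.17 for the 6 names of 2 bases, -0.08 for the 51 of 4, -0.13 for the 63 of 5 and 0.07 for the 23 of 6. Of the 3-base units 4 were called higher in that comparison, or 21.1%, beside 2.88% of all names tested. Against INPUT 12 of the 19 were above 0, or 63.2%, beside 43.3% of all names, and 5 were called higher, or 26.3%, beside 3.22%. Against BO the median of the 3-base units was 0.02, and 10 of the 19 were above 0, or 52.6%, beside 38.3% of all names. In that comparison 4 were called higher, or 21.1%, beside 5.08%, and 1, (GAA)n, lower, or 5.26%, beside 3.81%. The 3-base units called higher against TOTAL, INPUT and BO included (CAG)n and (CTG)n each time, which are names of 1 motif. Among the 51 units of 4 bases the IP calls by limma were 3, all of them lower than in BO, or 5.88%, beside 3.81% of all names.

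**Figure D2:**
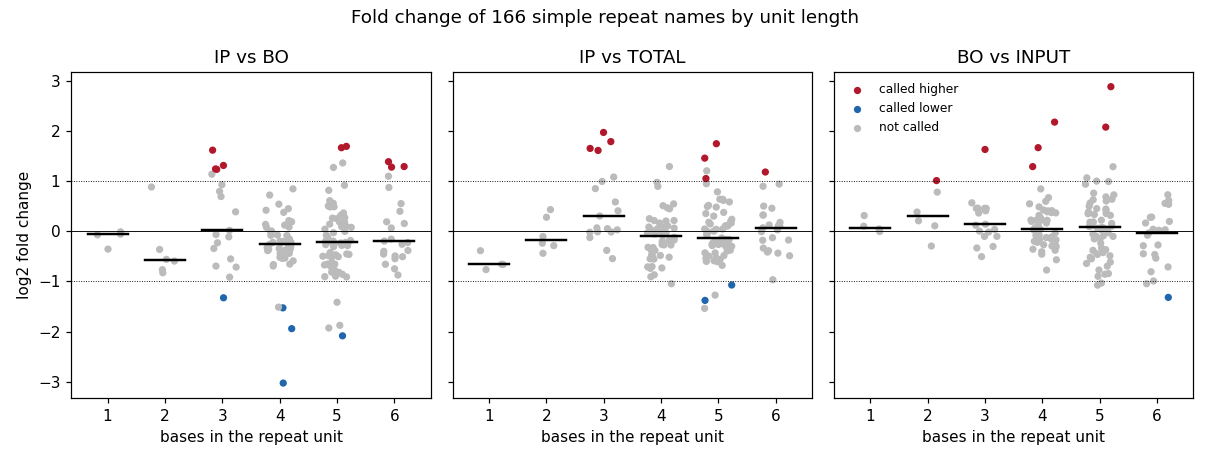
Log2 fold change (vertical axis) of each of the 166 simple repeat names by the number of bases in its unit (horizontal axis), for IP against BO, IP against TOTAL and BO against INPUT. Black lines are medians, dotted lines mark 1 and -1, red points were called higher and blue points lower by limma. Names of 3 bases supply 4 of the 8 names higher in IP than in TOTAL, among them both names of the CAG/CTG motif.

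Beads without antibody held a different short list, led by the CTCA/TGAG motif. (CTCA)n was at 359.6, 382 and 343 in BO, 72.3, 75.1 and 90.7 in INPUT, 66.2, 67.0 and 88.3 in TOTAL and 42.7, 37.1 and 51.7 in IP. (TGAG)n was at 489.9, 489 and 443 in BO, 139, 144 and 162 in INPUT, 116, 114 and 141 in TOTAL and 128, 128 and 112 in IP. The BO libraries lay above all others for both names, and for (CTCA)n the IP libraries lay below all others. From INPUT to BO the log2 fold change was 2.18 ± 0.16 (SE) for (CTCA)n and 1.67 ± 0.12 for (TGAG)n, with limma adjusted p of 3.5e-06 and 2.4e-06. From BO to IP it was -3.03 ± 0.16 and -1.94 ± 0.12, with limma adjusted p of 1.5e-07 and 2.8e-07. These comparisons share the BO libraries. Against INPUT alone, (CTCA)n was lower in IP by a log2 fold change of -0.85 (limma adjusted p = 0.0026), short of the fold limit, and (TGAG)n was at -0.27 (limma adjusted p = 0.11).

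(CCAA)n and (GAA)n were also highest in BO. (CCAA)n was at 599.6, 595 and 507 in BO and 252, 249.8 and 194 in INPUT, a log2 fold change of 1.29 ± 0.14. (GAA)n was at 1224, 958 and 750.5 in BO and 452, 245 and 264 in INPUT, a log2 fold change of 1.63 ± 0.35. In IP they stood at 204, 186 and 197 and at 447, 382 and 326, and both were called lower in IP than in BO, at -1.53 and -1.33, the second of them not called without BO replicate 1 or when scaled to library totals. (TA)n was at 2190.2, 2356 and 1984 in BO and 809.8, 1188 and 1294 in INPUT, a log2 fold change of 1.01 at the edge of the limit that was lost without INPUT replicate 1 or BO replicate 2, with edgeR and with either other scaling. (CATTC)n and (TTTAG)n were also called higher in BO, yet (CATTC)n rested on 74, 26 and 8 reads in BO and 12, 1 and 2 in INPUT, and BO values had carried both past the minimum mean. The call of (CATTC)n was lost with any of 4 libraries left out, and that of (TTTAG)n with any of 6. (CACTC)n, a 5-base unit, was the other name lower in IP than in BO, at 7.35, 2.56 and 19.5 against 47.4, 31.2 and 28.9. Its log2 fold change was -2.08 against BO and -2.02 against INPUT, on 5, 2 and 20 reads in IP, and the second was not called without INPUT replicate 3. In 20 of the 166 members, or 12%, all 3 BO libraries were above the other 9, beside 13.6% of all names tested.

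The dinucleotide CA/TG, whose names had the highest and second highest means over the 12 libraries, was among these 20. (CA)n was at 14587, 10278 and 13477 in BO, 10161, 9236 and 9655 in INPUT, 7163, 9226 and 8974 in TOTAL and 6678, 6749 and 8035 in IP. (TG)n was at 12819.5, 9366 and 11979 in BO, 5531, 6753 and 7560.3 in INPUT, 6038, 7509 and 8012 in TOTAL and 6010.0, 6283 and 7762 in IP. Their log2 fold changes in IP against BO were -0.83 and -0.76, with limma adjusted p of 0.00055 and 0.0023, below the fold limit. Against TOTAL they were -0.24 and -0.10, and the libraries overlapped. (GA)n and (TC)n were at -0.36 and -0.56 against BO, and (CG)n, at 3.90 to 36.8 in all libraries, was not called. The other 4 of the 10 highest means, which were (TTTG)n, (TTTTG)n and their reverse complement names, had log2 fold changes between -0.46 and 0.12 in the 5 comparisons and were not called. Together (CA)n, (T)n, (TG)n and (A)n held 35.6% to 46.4% of simple repeat reads in each library.

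Names of 1 base differed more between replicates than between groups. (A)n was at 15896, 6896 and 6019.9 in TOTAL, 7272, 4348 and 4383 in INPUT, 7266, 5029.5 and 4702 in BO and 7344, 5203 and 4408 in IP. (T)n was at 16456, 7127 and 5899 in TOTAL and 10256, 5888 and 5134 in IP. Replicate 1 was the highest of its group for both names in every group, and neither name was called in any comparison. (C)n was at 1185, 361 and 1182 in TOTAL and 665, 230.2 and 945 in INPUT, and (G)n at 116, 29.6 and 117 and at 74.2, 21.2 and 97.5. For these names replicate 2 was the lowest in TOTAL and INPUT, and in IP it was the highest, at 741 and 74.3.

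The telomere motif was not called in any comparison by limma. (TTAGGG)n was at 60.5, 69.0 and 64.1 in BO, 37.6, 46.5 and 46.9 in INPUT, 43.9, 41.7 and 46.8 in TOTAL and 45.6, 29.4 and 31.2 in IP. BO was above all other libraries, with a log2 fold change in IP against BO of -0.87 (limma adjusted p = 0.0043), under the fold limit. (CCCTAA)n was at 46.1, 37.7 and 59.3 in BO and 42.7, 33.3 and 32.2 in IP, and these overlapped. A G-rich relative, (TTGGGG)n, was highest in INPUT at 46.0, 38.4 and 53.7, against 13.2, 8.96 and 15.6 in IP and 21.6, 24.1 and 29.8 in TOTAL. It was called lower in IP than in INPUT at -1.81 (limma adjusted p = 0.0017) and lower in BO than in INPUT at -1.32, and both calls held with each library left out in turn, at -1.97 to -1.60 and -1.60 to -1.01. Scaled to library totals neither was called (limma adjusted p = 0.061 and 0.17), and with a pseudocount of 10 that of BO against INPUT was at -0.99. (ATATG)n was at 50.7, 36.2 and 47.9 in TOTAL, 17.9, 21.2 and 13.6 in INPUT and 11.8, 20.5 and 18.5 in IP, and was called lower in INPUT, at -1.31 with a limma adjusted p of 0.048 that any library left out took past the limit, and in IP, at -1.38, where scaling to library totals turned it to 0.11 (limma adjusted p = 0.81). (CACAT)n was called lower in IP than in TOTAL at -1.07, but was at 0.42 when scaled to library totals, and was not called without IP replicate 1, at -0.70, or without any TOTAL replicate.

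Reverse complement names did not always move together. Of the 71 pairs, 53 had the same sign for IP against BO and 46 for BO against INPUT. For IP against BO, 2 pairs had both names called in the same direction and 8 had 1 name called. The median absolute difference between partners was 0.35 in that comparison and 0.16 for INPUT against TOTAL, and 9 pairs differed by more than 1 in the former. Because both names of a pair are read in the same library, their ratio does not depend on the scaling of the libraries apart from the pseudocount.

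**Figure D3:**
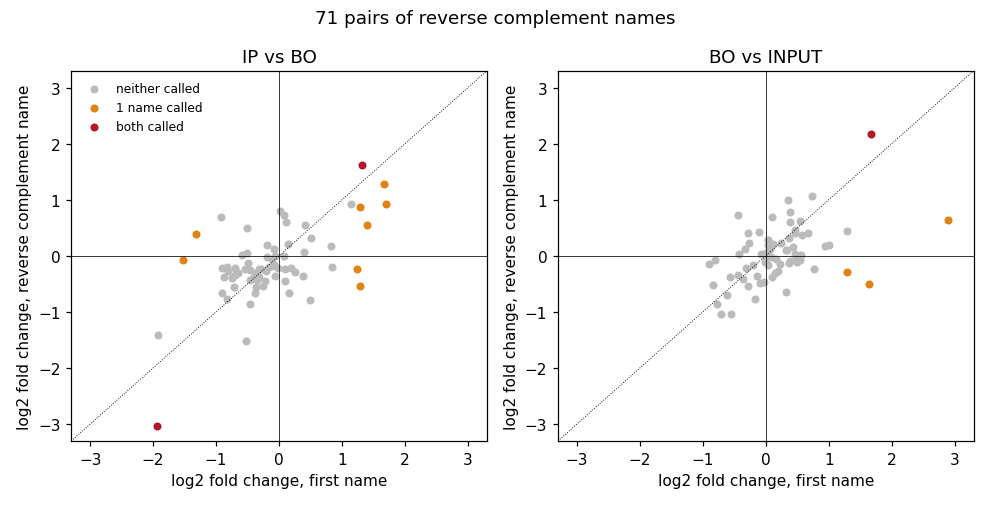
Log2 fold change of each name (horizontal axis) and of its reverse complement name (vertical axis) for 71 pairs, in IP against BO and BO against INPUT. The dotted line marks equal change, red points are pairs with both names called (2 and 1 pairs) and orange points pairs with 1 name called (8 and 3 pairs).

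The GAA/TTC motif split widely between its names. (TTC)n was at 181, 185 and 135 in BO and 380.5, 189 and 181 in INPUT, where (GAA)n rose. The log2 ratio of (GAA)n to (TTC)n was 2.53 ± 0.20 (SD, n = 3) in BO and 0.39 ± 0.15 in INPUT, a difference of 2.14. For (CCAA)n to (TTGG)n the ratio was 1.65 ± 0.39 in BO and 0.07 ± 0.21 in INPUT, and (TTGG)n itself was at 194, 142 and 208 in BO and 245, 203 and 212 in INPUT. The ratio differed by over 1 on the log2 scale in 9 of 71 pairs for IP against BO, 6 against INPUT and 7 against TOTAL. Among these were (CTA)n to (TAG)n, at 2.14 ± 0.62 against 0.56 ± 0.38 in TOTAL, and (CAT)n to (ATG)n, at -0.34 ± 0.06 against 1.27 ± 0.16 in INPUT. (TAG)n was at 58.8, 89.6 and 87.8 in IP and 65.6, 87.8 and 75.5 in TOTAL. (CAT)n was at 1275, 1058 and 866 in IP and 1694, 1404 and 1269 in INPUT. In these 4 contrasts the libraries of the groups did not overlap, and the exact permutation p was 0.1, the smallest that 3 libraries against 3 allow. In the CTCA/TGAG pair both names fell from BO to IP, but the ratio also changed, from 0.39 ± 0.05 for (TGAG)n to (CTCA)n in BO to 1.47 ± 0.34 in IP.

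By base composition, units with more G and C than A and T, 68 names, took a larger share in IP. They held 14.2%, 11.3% and 10.4% of simple repeat reads in the IP libraries, and 4.3% to 9.4% in the other 9. Without (CAG)n and (CTG)n the IP values were 9.1%, 7.34% and 6.96%, which overlapped the 3.72% to 7.91% of the others. The 14 names of A and T only held 22.4% to 35.6% in TOTAL, 18.8% to 23.2% in INPUT, 17.3% to 23.9% in BO and 19.2% to 28.0% in IP, and the IP range overlapped each of the others. In IP against BO the median log2 fold change was 0.15 for these GC-rich names, -0.36 for the 29 with equal numbers of both, -0.32 for the 55 with fewer G and C and -0.44 for A and T only, where 0 of the 14 were above 0, beside 38.3% of all names tested.

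**Figure D4:**
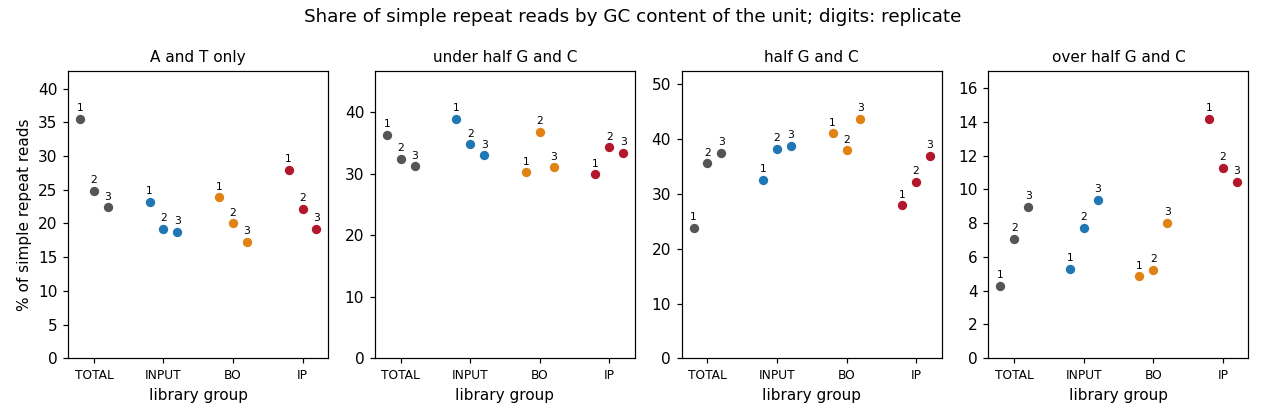
Share of simple repeat reads (vertical axes, in percent) held by names of 4 classes of GC content of the unit, in each library of the 4 groups (horizontal axes), with the replicate as a digit. In the class richest in G and C, on the right, the IP libraries lie above the other 9, and within TOTAL and INPUT replicate 1 is the lowest.

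Libraries of 1 group differed in this respect as much as groups did. Each value was centred on the mean of its name over the 12 libraries on the log2 scale. Across the 166 names, Spearman's rank correlation of the centred value with the GC share of the unit was -0.55, 0.15 and 0.37 in TOTAL, -0.43, 0.41 and 0.55 in INPUT, -0.42, -0.48 and 0.25 in BO and 0.30, 0.23 and 0.41 in IP. Names are not independent, and all are read from the same libraries, so these values are a description. Replicate 1 of TOTAL and of INPUT and replicates 1 and 2 of BO were therefore low in GC-rich units, while the 3 IP libraries were alike in sign. The low complexity row GC_rich, which is no simple repeat, was also lowest in replicate 1 of TOTAL, at 433, 2521 and 1220.2, and of INPUT, at 786, 1898 and 2022. In BO its lowest library was replicate 2, at 1271, 546 and 1470.5, and it was at 4098, 1168 and 1296 in IP. The correlation of the GC share with the log2 fold change was 0.46 for IP against BO and 0.35 to 0.56 with each library left out. For single pairs of libraries it was 0.38 to 0.55 against BO replicates 1 and 2, but -0.0256 to 0.14 against BO replicate 3. It was 0.40 for IP against TOTAL but 0.14 without TOTAL replicate 1, and 0.29 for IP against INPUT but 0.04 without INPUT replicate 1, with single pairs from -0.16 to 0.55 and from -0.25 to 0.45. For BO against INPUT it was -0.29, with -0.53 to -0.11 on leaving out a library and -0.62 to 0.41 over single pairs. For INPUT against TOTAL, whose libraries deviated together by replicate number, it was 0.23 overall and 0.23, 0.20 and 0.18 within the pairs of equal number. Leaving out 1 library of a pair turned it to -0.22 without TOTAL replicate 1 and to -0.01 without INPUT replicate 3. Library preparation and sequencing of the single libraries were not tested as a source of this pattern.

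**Figure D5:**
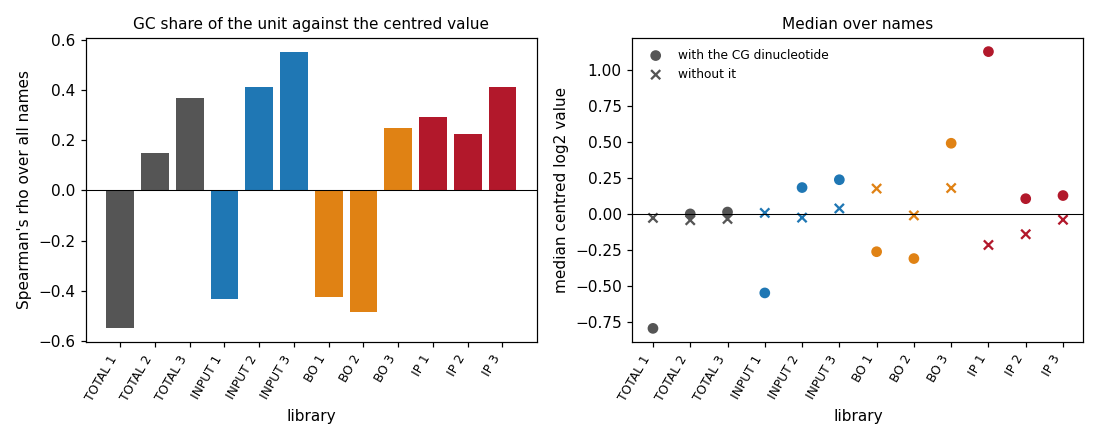
Left, Spearman's rank correlation (vertical axis) between the GC share of the unit and the centred log2 value over 166 names, for each library. Right, median centred log2 value of the 16 names whose tract holds the CG dinucleotide and of the 150 others, for each library. TOTAL replicate 1 has the lowest correlation, -0.55, and IP replicate 1 the highest median for names with CG, 1.13.

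The 16 names whose tract holds a CG dinucleotide, the site of DNA methylation and common in CpG islands at promoters, were high mainly in IP replicate 1. (CGG)n was at 1139.9, 378 and 369.7 in IP, 194, 179.5 and 423 in BO, 204, 382 and 379 in INPUT and 184, 438 and 334 in TOTAL. (CCG)n was at 910.5, 414 and 338 in IP and 157, 299 and 283 in TOTAL. Only IP replicate 1 of these libraries stood clear of the range of TOTAL, INPUT and BO for (CGG)n, and neither name was called in any of the 5 comparisons by limma, with log2 fold changes of 1.14 and 0.93 against BO. (CCGCG)n was at 110.3, 17.9 and 14.6 in IP and 7.81 to 27.8 elsewhere, and (CCGG)n at 70.6, 3.84 and 9.75 in IP. In IP replicate 1, 10 of the 16 names had their highest value of all 12 libraries, beside 14.5% of the 166 members and 11.9% of all names tested. The median centred log2 value of the class was 1.13, 0.11 and 0.13 in the IP libraries and -0.80, 0.00 and 0.01 in TOTAL. (TCG)n, by contrast, was high in every IP library.

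In the transcript annotation, the motifs differed in where their tracts lie. Of 10588 pairs of a motif and a gene with a perfect tract of at least 24 bases, 2.04% were in coding sequence, 4.21% in 5' UTRs, 38.0% in 3' UTRs and 55.7% in noncoding transcripts, retained introns included. For CAG/CTG, 72 of 214 genes, or 33.6%, had the longest tract in coding sequence. For CGG/CCG, 60.8% of 102 genes had it in the 5' UTR and 17.6% in coding sequence. CA/TG tracts, in 3430 genes, were in coding sequence in 0.41% and in 3' UTRs in 40.0%, and the CTCA/TGAG motif had 10 genes, 7 of them in the 3' UTR. Only tracts on the sense strand of annotated transcripts were counted, and most loci in introns and between genes are outside this count.

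Summed means of the host genes gave other ratios than the repeat names did. Over the 112 CAG/CTG host genes with a mean of at least 10, the authors' normalized means summed to 181880 in TOTAL and 226760 in IP, a ratio of 1.25, where the ratio over all 14670 genes at that minimum was 1.13. The median ratio per gene was 1.36 for these hosts and 0.98 for all genes, while (CAG)n and (CTG)n rose 3.15 and 3.93 fold. For CA/TG the 1710 host genes gave a ratio of sums of 1.56 and a median ratio of 1.05, while (CA)n was at -0.24 on the log2 scale. For CGG/CCG 77 genes gave 2.13 and 1.36. Tsc22d1, whose tract is printed above, was at 23357 in TOTAL and 4867 in IP. The gene means were normalized separately from the repeat counts and hold no value per library, so no test was made between them.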

How the data were processed

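Processed values of RNA-seq libraries from Mael-/- testes were used, with groups and replicate numbers taken from the sample labels. Members, classes and lists were chosen with earlier results of these data known. For repeats, the authors mapped reads of rRNA-depleted stranded libraries against mm10 (STAR v2.6.0c), redistributed ambiguous reads by Telescope, summed them per repeat name and divided by an upper quartile factor per library, which gives the deposited signal. Since 100% of values per library were whole multiples of 1 step, within 0.1 of a read, reads were recovered by division, and shares were computed from them. Sampling intervals (Wilson, 95%) of these shares were far narrower than the spread between libraries and cover counting error only. The tables per gene and locus were made by the authors with DESeq2 v1.24.0. Only their deposited mean signal per group was used for genes, and their fold changes and p-values, the authors' own comparisons, were not used. These tables list 0 simple repeat loci, so the planned count of loci behind each member could not be made.

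The log2 of the normalized count plus a pseudocount of 1 was fitted with limma 3.58.1 (lmFit, eBayes with trend) in R 4.3.3, in 1 model of the 4 groups over the 1180 names with a mean of at least 10, with two-sided tests and Benjamini-Hochberg adjustment. Fold changes are on this scale and understate changes of low names. Alternatives were a replicate block, library totals or median-ratio size factors as scaling, pseudocounts of 0.1 and 10, no minimum or one of 100, edgeR 4.0.16 run on recovered reads, a fit without the groups not compared, and each library left out. Tested on simulated counts for IP against INPUT, with 200 of 1180 names changed by a log2 fold of 2, the fit called 100% of these and 0 others. The counts were drawn independently with the same dispersion for every name and without the deviations of single libraries described above. Smaller changes were not simulated, so the test checks the procedure and gives no error rate for these data. Same-numbered libraries deviated together for INPUT against TOTAL (correlations of 0.32 to 0.63). There 2 of the 3 INPUT libraries correlated best with the TOTAL library of their own number, and INPUT replicate 3 did not. In the IP comparisons the correlations of same-numbered libraries were -0.14 to 0.12, while for BO against INPUT 2 of 3 pairs passed 0.1. Ratios of reverse complement names used two-sided exact permutation tests in Python 3.11.15.

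Named members were all units of 1 or 2 bases, the 10 highest means, up to 5 called in each direction per comparison with the largest change, the telomere, CAG/CTG and CGG/CCG units and the rows next to the minimum. Reverse complement names of named members were added for the pairs described, and the other 4 called members, (CCGCG)n and (CCGG)n were chosen after their values were seen. Transcript tracts on 1 chromosome were not considered for printing.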

Additional observations from a re-analysis of the deposited data

How the results depend on the processing

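Of 41 calls of named members, 21 held under every alternative run, including those of (CAG)n and (CTG)n in the IP comparisons and of (CTCA)n, (TGAG)n and (CCAA)n. Scaling to library totals put the median of all names at 1.49 for IP against TOTAL and 1.03 for INPUT against TOTAL. That median was 0.47 for IP against INPUT, 0.36 for IP against BO and 0.08 for BO against INPUT under this scaling. Under it, members called higher and lower numbered 18 and 4 for IP against BO, 18 and 1 for IP against INPUT, 136 and 0 for IP against TOTAL, 93 and 0 for INPUT against TOTAL and 5 and 0 for BO against INPUT, the medians of members were 0.27, 0.45, 1.49, 1.05 and 0.12, and (ATATG)n and (CACAT)n in IP against TOTAL turned to 0.11 and 0.42. With the replicate block, 8 members were lower for IP against BO, 4 for IP against TOTAL and 2 for BO against INPUT. INPUT against TOTAL, where same-numbered libraries deviated together, kept its counts of 0 and 1 with the block, and (CGGGG)n lost its call against BO. A mean of at least 100 left 5 higher for IP against BO, 0 lower for IP against INPUT, 3 higher and 0 lower for IP against TOTAL with a median of -0.18, and 0 lower for both INPUT against TOTAL and BO against INPUT, with fewer names tested. Without a minimum, 8 were lower for IP against BO, 0 for INPUT against TOTAL and 5 for BO against INPUT. A pseudocount of 10 gave 1 lower for IP against TOTAL and 0 for INPUT against TOTAL and BO against INPUT. The compared groups alone gave 1 and 0 lower for IP against TOTAL and INPUT against TOTAL, and edgeR gave 1 lower for IP against TOTAL. With 1 library left out, higher counts ranged from 6 to 12 for IP against BO, 4 to 6 for IP against INPUT, 5 to 9 for IP against TOTAL, 0 to 0 for INPUT against TOTAL and 5 to 7 for BO against INPUT, and lower counts from 4 to 8, 1 to 4, 1 to 3, 0 to 0 and 1 to 2. Medians of members ranged from -0.27 to -0.17, -0.14 to -0.02, -0.09 to -0.02, 0.03 to 0.13 and 0.03 to 0.15. Counts moved by over 1.5 times without IP replicate 1 (IP against BO 8 lower, IP against TOTAL 5 higher and 1 lower), any TOTAL replicate (IP against TOTAL 1 lower), INPUT replicate 3 (IP against INPUT 1 lower), IP replicate 2 (IP against INPUT 4 lower), INPUT replicate 1 (BO against INPUT 2 lower) and any library of INPUT against TOTAL (0 lower). The rank correlation with GC share for INPUT against TOTAL, added after seeing the data, ranged from -0.221 (without TOTAL replicate 1) to 0.498 (without INPUT replicate 1) and was -0.0142 without INPUT replicate 3, while within the pairs of equal number it was 0.225, 0.201 and 0.176. The cause of these shifts was not tested. Counts under the alternatives, library totals included, are of members only, so a move in members cannot be told from one in all names. Depth limits the rare names, since 2 to 23 members had under 10 reads in a library.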
